A study of Homo sapiens with 6 samples.

Results

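The tetraspanin family is a set of small membrane proteins that cross the membrane with 4 segments, taken here as 32 genes: TSPAN1 to TSPAN18, TSPAN31 to TSPAN33, CD9, CD37, CD53, CD63, CD81, CD82, CD151, UPK1A, UPK1B, ROM1 and PRPH2. A gene was read at the probe set annotated to it alone that had the highest mean over the 6 arrays, and all 32 members were measured, among 19775 genes in all. The arrays came from MCF10A, an established line of human breast epithelium that does not form tumours. In one group of 3 the cells carried C/EBPbeta-2, one of the protein forms made from the transcription factor gene CEBPB, and in the other group of 3 they did not (control). Both groups were grown in a serum medium with insulin, hydrocortisone, epidermal growth factor and cholera toxin, with no further treatment. The sources used here do not say how C/EBPbeta-2 was introduced or whether the cells were clones. Samples of a group are labelled as biological replicates, but what separates them is not stated, and p-values here therefore reflect only the spread among these arrays.

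Tetraspanins have few signals of their own. They hold partner proteins, such as integrins, the protease ADAM10, growth factor precursors and claudins, in shared membrane domains and steer them to the cell surface, to endosomes or into small extracellular vesicles. CD9, CD63, CD81, CD82 and CD151 are found in most epithelia, TSPAN5, TSPAN10, TSPAN14, TSPAN15, TSPAN17 and TSPAN33 form the TspanC8 subgroup that carries ADAM10, and others belong to leukocytes (CD37, CD53, TSPAN32), the bladder surface (UPK1A, UPK1B) or photoreceptor discs (PRPH2, ROM1).

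Across the family, 1 of the 32 genes rose with C/EBPbeta-2 and 0 fell. The gene that rose was TSPAN13, by 2.85-fold. TSPAN5 had the largest difference, 4.76-fold higher in the C/EBPbeta-2 mean, but varied widely between control arrays and did not pass the test. The abundant surface members CD9, CD63, CD81, CD82 and CD151 differed by less than the spread between replicates. The threshold for a call was an adjusted p of 0.05 in limma, fitted over all probe sets and adjusted over all genes, and 0.263% of all genes passed it, 0.0961% higher and 0.167% lower. At an unadjusted p under 0.05 there were 2 members, both higher, and 0 lower, against 5.4% of all genes, 2.66% higher and 2.74% lower. The median log2 difference over the 32 members was 0.05, beside 0.01 over all genes, and 29 members (90.6%) differed by less than 0.5 in either direction, beside 90.3% of all genes.

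**Figure D1:**
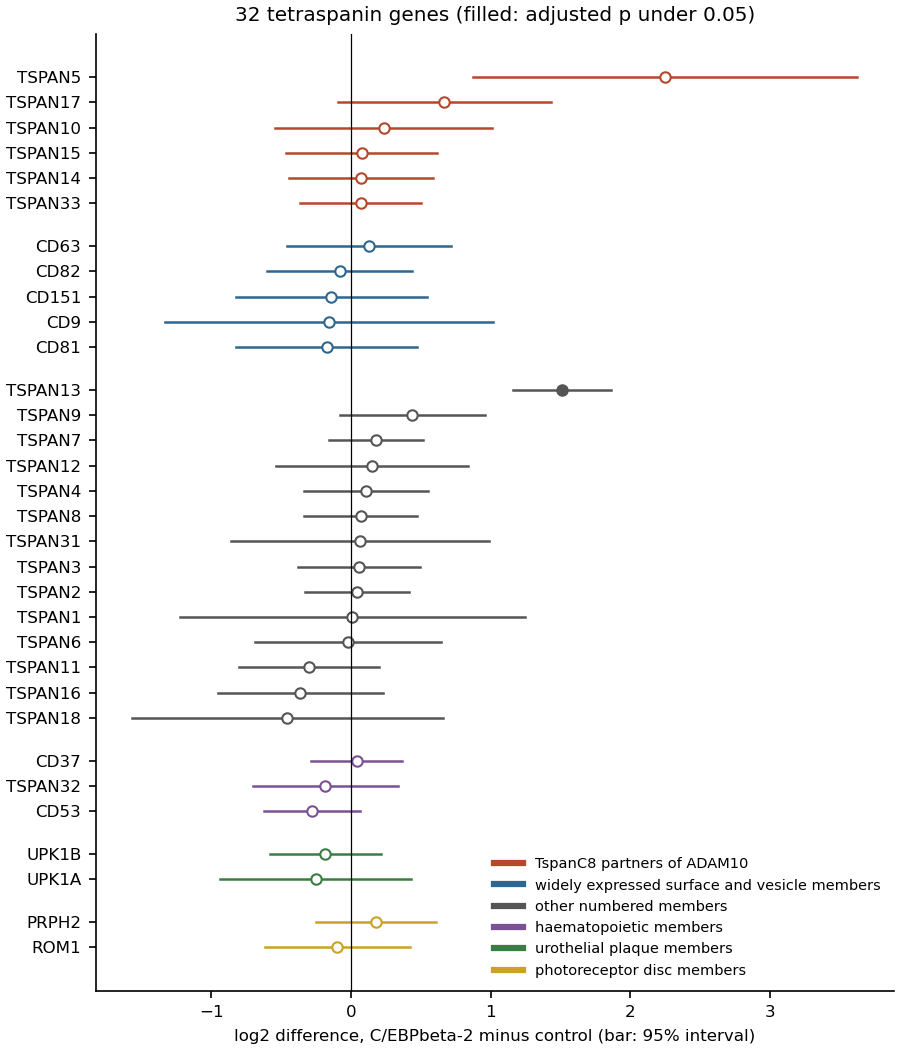
Log2 difference of each of the 32 tetraspanin genes, C/EBPbeta-2 minus control, with its 95% interval, grouped by role (n = 3 arrays per group). The single filled point is TSPAN13 at 1.51, and TSPAN5 lies farthest to the right at 2.25 with an interval of 0.88 to 3.63.

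TSPAN13 is a broadly expressed tetraspanin known to bind voltage-gated calcium channels. In log2 intensity its single probe set, 217979_at, gave 10.83, 10.83 and 10.90 on the 3 C/EBPbeta-2 arrays and 9.32, 9.49 and 9.21 on the control arrays. The 3 C/EBPbeta-2 values lay close together and above every control value. The mean rose from 9.34 ± 0.14 to 10.85 ± 0.04 (SD, n = 3 per group), a log2 difference of 1.51 (SE 0.15, 95% interval 1.16 to 1.86, limma adjusted p = 0.0273). By unadjusted p the gene stood 18th of 19775. In bulk RNA, more cells with a transcript and more transcript per cell cannot be told apart. On 2 arrays, C/EBPbeta-2 replicate 2 and control replicate 1, the poly-A control RNA added as a spike-in was low. The TSPAN13 difference was 1.51 between these 2 arrays, 1.51 between the 4 of high spike-in level, and 1.45 to 1.59 when any 1 array was left out. The call was less steady than the size. It held without control replicate 2 (adjusted p = 0.0353) and was lost without C/EBPbeta-2 replicate 1 (0.102), replicate 2 (0.0861) or replicate 3 (0.136), without control replicate 1 (0.113) and without control replicate 3 (0.167).

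TSPAN5, a TspanC8 member that takes ADAM10 to the cell surface and is known to promote Notch cleavage, has 3 probe sets. On 225387_at, its brightest, it read 7.20, 7.87 and 8.46 with C/EBPbeta-2 and 4.77, 6.80 and 5.21 in control cells. The groups did not overlap, but control replicate 2 lay near the lowest C/EBPbeta-2 array. The means were 7.85 ± 0.63 and 5.60 ± 1.07 (SD, n = 3), and the log2 difference of 2.25 (SE 0.57) had a limma adjusted p of 0.382 and an unadjusted p of 0.00651. Probe set 225388_at read 6.76, 6.92 and 7.87 against 5.20, 6.05 and 5.21, a log2 difference of 1.70. Probe set 209890_at read 7.16, 7.35 and 8.86 against 4.35, 6.99 and 5.49, a log2 difference of 2.18. On all 3 probe sets the groups were apart, control replicate 2 was the highest control and C/EBPbeta-2 replicate 3 the highest array. The probe sets read the same RNA and do not add replicates. Without control replicate 2 the difference was 2.86 (adjusted p = 0.0917), without control replicate 1 it was 1.84 (0.781), and between arrays of low and of high spike-in level it was 3.10 and 1.82. TSPAN5 passed the threshold in none of the alternatives (adjusted p 0.0594 to 1.00).

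**Figure D2:**
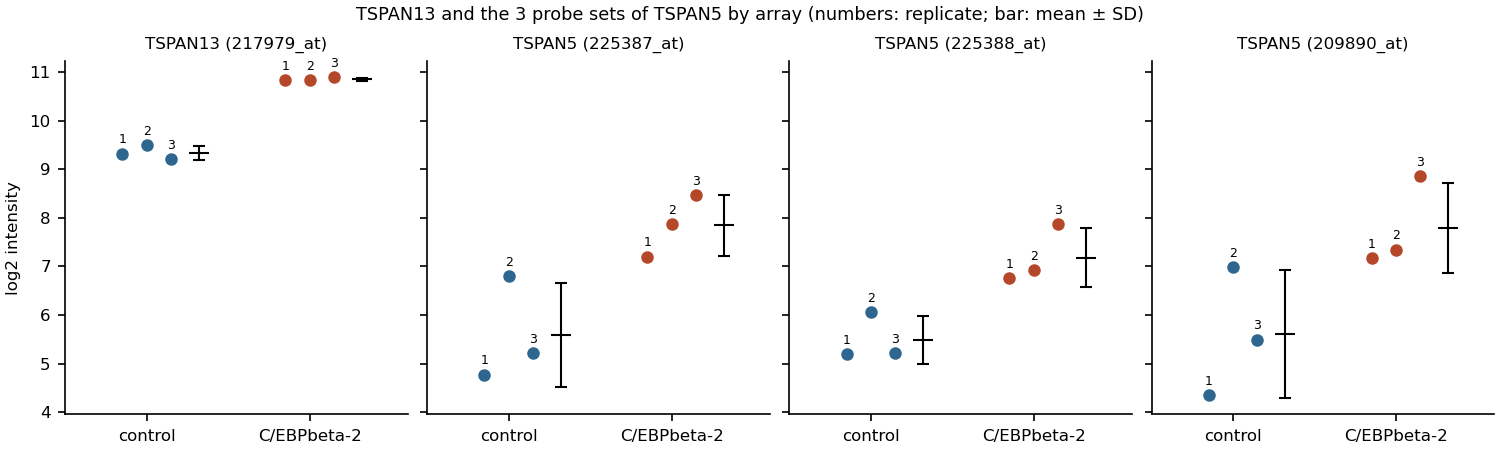
Log2 intensity of TSPAN13 (1 probe set) and TSPAN5 (3 probe sets) on each of the 6 arrays, with the replicate number at each point and the group mean ± SD (n = 3). TSPAN13 is tight in both groups, at 9.21 to 9.49 in control and 10.83 to 10.90 with C/EBPbeta-2, while control replicate 2 stands above the other control arrays on each TSPAN5 probe set.

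The promoters of TSPAN13 and TSPAN5 are shown because C/EBPbeta-2 is a transcription factor and these 2 members had the largest differences. Each window runs from 250 bases before to 50 bases after the annotated start, from RefSeq on GRCh38.p14: chr7:16753505-16753804 on the plus strand for TSPAN13 and chr4:98658562-98658861 on the minus strand for TSPAN5. Capitals mark the letters CCAAT, and no other searched motif was found in them.
TSPAN13: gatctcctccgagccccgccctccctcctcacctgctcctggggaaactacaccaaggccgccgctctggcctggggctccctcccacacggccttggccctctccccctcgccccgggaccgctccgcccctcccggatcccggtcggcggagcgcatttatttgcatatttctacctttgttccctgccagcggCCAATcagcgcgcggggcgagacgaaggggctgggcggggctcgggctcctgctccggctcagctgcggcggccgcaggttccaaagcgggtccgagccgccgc
TSPAN5: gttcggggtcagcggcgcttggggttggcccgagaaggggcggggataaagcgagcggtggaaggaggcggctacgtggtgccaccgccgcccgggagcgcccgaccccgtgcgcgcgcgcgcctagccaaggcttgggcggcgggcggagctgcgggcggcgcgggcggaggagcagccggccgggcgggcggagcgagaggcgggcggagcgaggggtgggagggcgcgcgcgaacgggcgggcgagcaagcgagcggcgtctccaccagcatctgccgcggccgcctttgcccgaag
Motifs were searched as letters on both strands: TTGCNNAA, a form of the C/EBP core site, and CCAAT, the box that gave the C/EBP family its name and is bound mostly by other factors. The TSPAN13 window held CCAAT once, ending 49 bases before the start, and the TSPAN5 window held neither. Of 35116 promoter windows of the same length, 10.5% held TTGCNNAA and 34.6% held CCAAT. Of the 32 members, 24 had a window in the table, 44 windows in all, and TTGCNNAA was in 2 of these, the TSPAN6 window at TTTTGCAA and a CD53 window at TTAAGCAA. Neither TSPAN6 (log2 difference -0.02) nor CD53 (-0.28) was called. CCAAT was in 10 of the 44 windows, of 10 members, and apart from TSPAN13 none of these members was called. The windows of TSPAN13 and TSPAN5 were rich in G and C, 71.3% and 78.3% against a median of 58.7% over all windows.

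None of the other 5 TspanC8 members was called. Their differences were all above 0 here, but those of TSPAN14, TSPAN15 and TSPAN33 changed sign in at least 1 alternative. TSPAN17, which binds ADAM10 in endothelial and other cells, read 8.56, 7.83 and 8.62 with C/EBPbeta-2 and 7.19, 8.14 and 7.68 in control cells. Its groups overlapped through C/EBPbeta-2 replicate 2 and control replicate 2, and the log2 difference was 0.67 (SE 0.32, 95% interval -0.09 to 1.43, limma adjusted p = 1.00). It was 0.64 between arrays of low spike-in level and 0.68 between those of high level. TSPAN10, known from pigment cells, differed by 0.23, and TSPAN15, which favours cleavage of N-cadherin by ADAM10, by 0.08. TSPAN14 and TSPAN33 both differed by 0.07, and the intervals of these 4 reached from -0.54 to 1.01. The 2 probe sets of TSPAN14 gave 0.07 and 0.09. The median over the 6 TspanC8 genes was 0.15.

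ADAM10 itself did not differ beyond its spread (log2 difference -0.06, adjusted p = 1.00). Of 14 measured genes in a list of ADAM10, the related protease ADAM17 and known substrates, 1 fell and 0 rose, and the median was -0.03. At an unadjusted limma p under 0.05, 1 of the 14 was higher and 3 lower, against 5.4% of all genes in either direction. CDH1, the adhesion protein E-cadherin, fell by 2.14 on the log2 scale (SE 0.22, adjusted p = 0.0282), a call lost whichever array was left out (0.0617 to 0.167). The CDH1 call was also lost with the mean of its probe sets (log2 difference -1.94, limma adjusted p = 0.194). The receptor NOTCH3 differed by -1.05 (adjusted p = 0.0980; -0.54 with the mean of its probe sets) and the adhesion molecule JAM3 by 1.00 (0.657).

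Among the widely expressed members, CD9, which binds the precursor of heparin-binding EGF-like growth factor, read 11.54, 9.86 and 10.54 with C/EBPbeta-2 and 10.15, 11.38 and 10.87 in control cells. Both groups spanned more than a unit, and the log2 difference was -0.16 (SE 0.49, 95% interval -1.33 to 1.02). A change of 2-fold in either direction thus lay inside the interval of CD9. CD63, a marker of late endosomes and vesicles, read 11.44, 11.01 and 11.77 against 11.05, 11.55 and 11.24. Its log2 difference was 0.13 (95% interval -0.46 to 0.72). CD81, a co-receptor in B cells and a vesicle protein, read 10.06, 9.69 and 10.42 against 9.84, 10.25 and 10.59. The 2 groups overlapped over most of their range, with a log2 difference of -0.17 (-0.82 to 0.47).

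CD82, known as a suppressor of metastasis, read 8.36, 8.26 and 8.85 with C/EBPbeta-2 and 8.36, 8.80 and 8.56 in control cells, a log2 difference of -0.08 (95% interval -0.60 to 0.44). CD151, the partner of laminin-binding integrins in hemidesmosomes, read 9.14, 8.31 and 9.18 against 8.76, 9.30 and 9.00. Its log2 difference was -0.14 (-0.82 to 0.54). C/EBPbeta-2 replicate 2 was the lowest of the 3 C/EBPbeta-2 arrays for all 5 of these genes, and control replicate 1 was the lowest control array for all 5. These are the 2 arrays with little spike-in RNA. All 5 adjusted p-values were 1.00, and with intervals this wide the data do not show that these genes were the same in both groups.

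**Figure D3:**
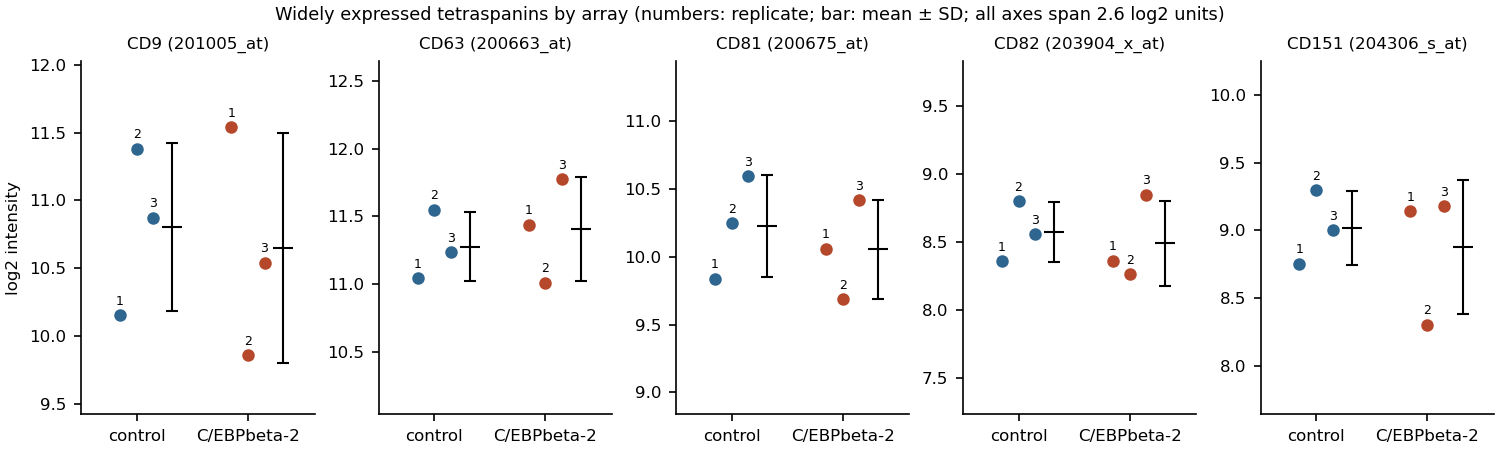
Log2 intensity of CD9, CD63, CD81, CD82 and CD151 on each array, with replicate numbers and the group mean ± SD (n = 3 per group). The groups overlap in all 5 panels, and C/EBPbeta-2 replicate 2 and control replicate 1 are the lowest points of their groups in each.

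The partners of these members were mostly not called. Of 6 measured laminin-binding integrin chains and laminin chains, limma called 0, and the 1 gene with an unadjusted p under 0.05 was LAMB3 (log2 difference 1.17, adjusted p = 0.831). Over all genes 5.4% had an unadjusted limma p under 0.05. The integrin chain ITGA3 differed by 0.57 and ITGB4 by -0.51, and the median was 0.28. The immunoglobulin-domain partners IGSF8 (-0.33), PTGFRN (-0.04) and CD101 (0.04), with 4 genes measured, gave 0 calls by limma and 0 at an unadjusted p under 0.05. Of 4 claudin and adhesion partners 1 fell, the tight junction protein CLDN7 (-2.28, SE 0.22, adjusted p = 0.0273; 0.0523 to 0.136 when any 1 array was left out). CLDN1, a partner of CD81 and CD9, differed by 0.85 and CD44 by 0.20, neither called.

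The 9 measured growth factor and receptor partners differed by 0.05 to 0.88, with a median of 0.50, beside 0.01 over all genes. Of them limma called 0, and 2 were higher at an unadjusted p under 0.05, against 5.4% of all genes in either direction (2.66% higher). The largest were TGFA (0.88, adjusted p = 0.680; 0.35 with the mean of its probe sets), HBEGF, the growth factor precursor held by CD9 (0.71, adjusted p = 1.00), and the lipid kinase PI4K2A (0.60, 0.834). In the list of vesicle and endosomal sorting genes, 1 of 17 fell and 0 rose, with a median of 0.09. At an unadjusted limma p under 0.05, 3 of the 17 were higher and 1 lower, against 5.4% of all genes in either direction. RAB27B, a small GTPase of vesicle secretion, fell by 2.14 on the log2 scale (SE 0.17, adjusted p = 0.0127). Its call held without C/EBPbeta-2 replicate 1 or control replicate 2 and was lost without any of the other 4 arrays (0.0596 to 0.0920). It was also lost with the mean of its probe sets (-1.44, 0.0677). RAB31 (2.02, adjusted p = 0.171) and LAMP3 (1.42, 0.122) were not called. Of 6 palmitoyltransferases, enzymes of the kind that attach fatty acids to tetraspanins, 0 were called by limma (0 at an unadjusted p under 0.05), and ZDHHC4 (-0.27), ZDHHC2 (-0.08) and ZDHHC5 (0.07) had the largest sizes. The L6 proteins, which share the 4-pass shape but not the ancestry of tetraspanins, likewise gave 0 calls among 5 measured and 0 at an unadjusted p under 0.05, with TM4SF1 at -0.24, TM4SF18 at 0.19 and TM4SF4 at 0.11.

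**Figure D4:**
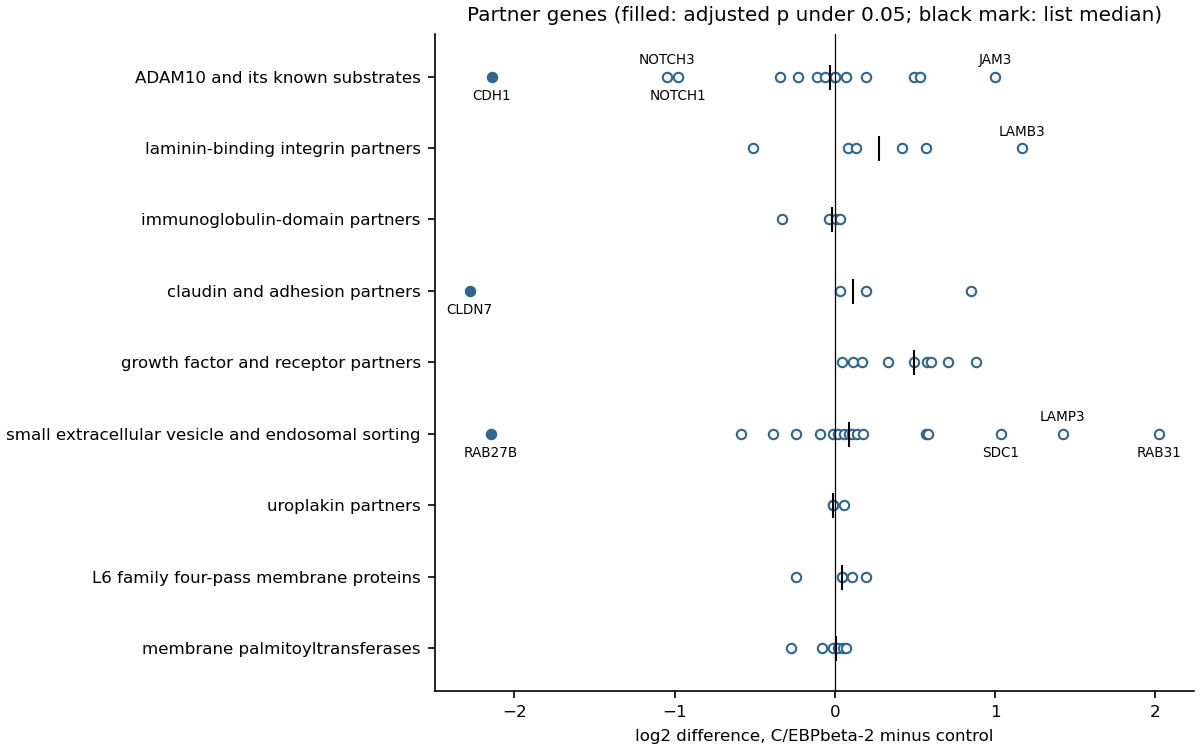
Log2 difference of each measured gene in the 9 lists of tetraspanin partners and related proteins, with the median of each list as a black mark. Filled points are the genes called by limma, CDH1, CLDN7 and RAB27B, all lower with C/EBPbeta-2.

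Of the other numbered members, TSPAN9, known from platelets and megakaryocytes, read 7.63, 7.26 and 7.34 with C/EBPbeta-2 and 7.07, 7.25 and 6.61 in control cells. Its groups were only just apart, between 7.26 and 7.25, and the log2 difference was 0.44 (SE 0.22, 95% interval -0.08 to 0.96, limma adjusted p = 1.00). On its dimmer probe set, 205665_at, the groups overlapped and the difference was 0.37. TSPAN7, a tetraspanin of neurons, read 3.39, 3.42 and 3.45 against 3.34, 3.25 and 3.12, with groups apart and a log2 difference of 0.18. These values lay below every array median, 4.46 to 4.56.

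TSPAN18, known to regulate calcium entry in endothelial cells, read 5.22, 4.22 and 4.41 with C/EBPbeta-2 and 4.40, 6.01 and 4.81 in control cells. Control replicate 2 and C/EBPbeta-2 replicate 1 were the high arrays, and the log2 difference of -0.46 (SE 0.46) was the lowest of the family. TSPAN16 read 5.46, 5.20 and 5.15 against 5.33, 6.13 and 5.44, a log2 difference of -0.36 (SE 0.25). Its dimmer probe sets, 242179_s_at and 242180_at, had the opposite sign, at 0.07 and 0.05. TSPAN11, a close relative of CD151, read 4.35, 4.37 and 4.35 against 4.60, 5.04 and 4.32, a log2 difference of -0.30 (SE 0.21). On the brightest probe set of all 3 genes the groups overlapped and control replicate 2 was the highest array.

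The other 8 numbered members had differences between -0.02 (TSPAN6) and 0.15 (TSPAN12), each with an interval across 0. TSPAN1 ranged most within groups, from 7.89 to 9.59 in control cells and from 8.21 to 9.55 with C/EBPbeta-2, and its mean differed by 0.01 (95% interval -1.22 to 1.25). TSPAN3 (0.06) and TSPAN4 (0.11), the latter a marker of migrasomes, had means above 9 on both groups of arrays. TSPAN31 (0.06) was read at 2 probe sets with opposite signs, 0.06 and -0.19. TSPAN2 (0.04) and TSPAN8 (0.07), whose product is known from gastrointestinal tumours, lay below every array median.

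CD53, a surface protein of leukocytes, was the single member with groups apart and a lower C/EBPbeta-2 mean at the brightest probe set of each gene. It read 4.51, 4.60 and 4.52 with C/EBPbeta-2 and 4.92, 4.69 and 4.85 in control cells, close to the array medians, a log2 difference of -0.28 (SE 0.14, limma adjusted p = 1.00). Its other 2 probe sets gave -0.12 and -0.06 with overlapping groups, and the mean over its probe sets differed by -0.15. CD37, of B cells, differed by 0.04 and TSPAN32 by -0.18. The dimmer probe set of CD37, 204192_at, gave -0.15 with groups apart, and that of TSPAN32, 233467_s_at, gave 0.01. Of 12 leukocyte markers 10 were measured, and their summed linear intensity was 426 to 649 on the C/EBPbeta-2 arrays and 275 to 296 on the control arrays. By their mean over the 6 arrays, 5 of these 10 markers lay above every array median (CD79A, CORO1A, LCP1, ITGB2 and CD14), 4 below (PTPRC, CD3D, MS4A1 and ITGAM) and CD3E between the medians. LCP1 (log2 difference 2.05, adjusted p = 0.214), ITGB2 (1.31, 0.789) and CD14 (0.92, 0.260) had the largest differences, and none of the 10 was called. The part of these markers in the CD53 value was not tested.

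The tissue-restricted members gave no calls. UPK1A (-0.25) and UPK1B (-0.18), which pair with UPK2 and UPK3A in the plaques of the bladder surface, lay below every array median, as did the means of UPK2 and UPK3A over the 6 arrays. The mean of UPK3B lay above every array median (4.77 with C/EBPbeta-2 and 4.78 in control cells). Their partners UPK2 (0.06), UPK3A (-0.01) and UPK3B (-0.01) were not called, with limma making 0 calls and 0 at an unadjusted p under 0.05. PRPH2, a protein of photoreceptor disc rims, differed by 0.18 and lay below the array medians, and its partner ROM1, at 5.05 to 5.68, differed by -0.10. Of 6 photoreceptor markers 5 were measured. By their means over the 6 arrays, GNAT1, RCVRN and CRX lay below every array median, and SAG and PDE6B lay above every array median.

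In all, the groups did not overlap for 5 of the 32 members. TSPAN5, TSPAN7, TSPAN9 and TSPAN13 were higher and CD53 lower, and groups were apart in 8.63% of all genes (4.62% higher and 4.01% lower). Of these 5, TSPAN7 lay below the array medians and CD53 near them. In 8 members the mean over the 6 arrays was below every array median: TSPAN2, TSPAN7, TSPAN8, TSPAN15, CD37, UPK1A, UPK1B and PRPH2. No detection calls were used here, so presence or absence of these transcripts was not assessed. The 32 genes had 60 probe sets, of which 1 was called, against 0.0659% of all probe sets. Of the 19 members with more than 1 probe set, 12 had the same sign on all of theirs.

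**Figure D5:**
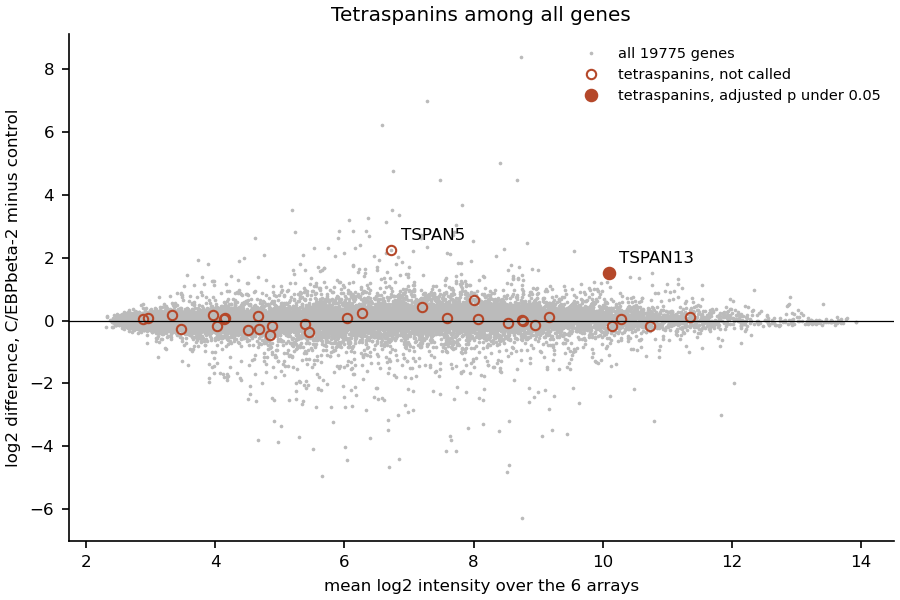
Log2 difference, C/EBPbeta-2 minus control, against mean log2 intensity over the 6 arrays for all 19775 genes (grey) and the 32 tetraspanins (circles, filled where called). Most tetraspanins lie in the dense band around 0 at every intensity, and TSPAN5 (2.25) and TSPAN13 (1.51) lie above it.

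The median level over the members differed between arrays of a group. The median over the 32 members was 6.48, 5.90 and 6.34 on C/EBPbeta-2 replicates 1 to 3 and 5.56, 6.44 and 5.64 on control replicates 1 to 3. It rests on the members at the middle rank, TSPAN10 and TSPAN33 on the C/EBPbeta-2 arrays and control replicate 2, where TSPAN5 ranked above them. On control replicates 1 and 3 TSPAN5 (4.77 and 5.21) ranked below the middle, which then lay between TSPAN16 and TSPAN10 or TSPAN33. These medians therefore do not give a level shared by all members. Over all genes the median was nearly level, at 5.47 to 5.52 on the 6 arrays. Control replicate 2 was the highest control array for 22 members (68.8%, against 46.5% of all genes), and C/EBPbeta-2 replicate 2 the lowest of its group for 19 (59.4%, against 37.0%). Beside this, 2 arrays, C/EBPbeta-2 replicate 2 and control replicate 1, had poly-A spike-in probe sets at a mean log2 of 3.85 and 3.98, while the other 4 lay at 7.21 to 8.25, and the 18S ribosomal RNA probe sets were brightest on control replicate 2 (12.17) and C/EBPbeta-2 replicate 1 (12.19), with 5.62 to 10.33 elsewhere. The difference between the 3′ and the 5′ probe sets of ACTB, a sign of RNA quality, was largest on the 2 arrays of low spike-in level, at 1.32 and 1.48 on the log2 scale, with -0.04 to 0.64 on the other 4. The part of these differences in the members' values was not tested. The median pooled SD within groups was 0.27 over the members, from 0.06 (CD37) to 0.88 (TSPAN5), beside 0.30 over all genes, and that of TSPAN13 was 0.10.

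The label of the cells was checked by epithelial markers. All 5 measured basal markers and 6 of 7 pan-epithelial markers lay above every array median, the exception being KRT19, and of these 12 limma called KRT14 (-3.00, adjusted p = 0.0347) and CDH1, both lower. By their mean over the 6 arrays, 5 of 8 fibroblast and stromal markers and 3 of 5 endothelial markers lay below every array median. The summed linear intensity of the 8 stromal markers was 349 to 567 on the C/EBPbeta-2 arrays and 726 to 3675 on the control arrays. DCN, the matrix protein decorin, read 8.16, 7.38 and 7.11 with C/EBPbeta-2 and 11.76, 9.74 and 8.98 in control cells, with groups apart (log2 difference -2.61, limma adjusted p = 0.445), and the other 7 stromal markers overlapped between groups. The part of these markers in the members' values was not tested. The probe set of CEBPB was not higher with C/EBPbeta-2 (log2 difference -0.62, adjusted p = 1.00), and it may lie outside an introduced sequence, so it did not check the labels.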

How the data were processed

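The 6 arrays of total RNA were compared as 3 per group by the sample titles. The deposited values are linear intensities, 1 per probe set and array, from 4.17 to 17825, which the authors made with RMA, per the submitters' processing notes; the sources used here do not describe the step to a linear scale. Values were taken to log2 without a pseudocount. Leaving out 62 control probe sets, limma 3.58.1 (lmFit and eBayes, R 4.3.3) was fitted to 54613 probe sets without covariates, two-sided. A gene was read at the probe set of highest mean among those with 1 symbol (41091; several symbols 1801, none 11721), and p-values were adjusted over 19775 genes by Benjamini-Hochberg. All 32 members matched the gene reference by gene ID. The fit was also run on simulated data with noise independent between arrays, which checks the code and not the calls made on these arrays.

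The members and lists were chosen with earlier results of these data known, and no list was tested as a set. Every member is accounted for; array values are given for members that were called, had an unadjusted p under 0.05 or groups apart, were among the 8 largest differences, or are CD9, CD63, CD81, CD82 or CD151. Called partners and up to 3 with the largest differences are named per list. Listed partners that no probe set named alone were not used here. The planned permutation test of the family median was not made, since the members were chosen with results known. Low and high spike-in level refer to the poly-A control RNA. The labels do not say whether replicate numbers pair the arrays, and the main fit did not pair them. Python 3.11.15, pandas 2.3.3 and matplotlib 3.10.9 were used. The number of arrays limits the precision.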

Additional observations from a re-analysis of the deposited data

How the results depend on the processing

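Without 1 array the number of tetraspanins called higher was 0 to 1 and that of all genes called 7 to 57, against 1 and 52. With the replicate number as a replicate block limma called 0 tetraspanins (2 at an unadjusted p under 0.05) and 0 genes (847 at an unadjusted p under 0.05), and TSPAN13 had an adjusted p of 0.244. The labels do not say whether the numbers pair the arrays. Deviations from the group means correlated at -0.52, -0.60 and 0.34 between same-numbered arrays. C/EBPbeta-2 replicate 2 correlated best with control replicate 1 (0.66) and C/EBPbeta-2 replicate 1 with control replicate 2 (0.65). The former are the 2 arrays of low spike-in level and the latter the 2 brightest for 18S ribosomal RNA. These correlations therefore cannot decide whether same-numbered arrays were paired. With only the 4 arrays of high spike-in level, chosen after seeing the data, 0 tetraspanins (3 at an unadjusted p under 0.05) and 13 genes were called, and TSPAN13 differed by 1.51 (adjusted p = 0.305). Array weights gave 122 genes and an adjusted p under 0.1 gave 92. TSPAN13 was called in 11 of 18 alternatives, with a difference of 1.45 to 1.59 and an adjusted p of 0.00814 to 0.305. Of the 31 other members 0 were called by limma in any alternative (lowest adjusted p 0.0594, TSPAN5), 11 kept their sign in all and 20 changed it in at least 1, so no direction is given to those. The family median was -0.02 without control replicate 1, -0.01 with the mean of probe sets and 0.11 without C/EBPbeta-2 replicate 2. Leaving out dim probe sets kept 23 members, and leaving out those ending in _x_at or _s_at kept 27. The causes of these changes were not tested. Where arrays were left out, the smaller number of arrays and the choice of array cannot be told apart.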
